A study of Mus musculus with 3 samples.

Results

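Splenic macrophages from mice whose acute myeloid leukemia carried a high level of mM-CSF were compared with splenic macrophages from mice with control leukemia, by RNA sequencing of 1 library on each side. All genes listed in either library formed the comparison: 17208 genes, of 17615 listed in any of the 3 libraries of the study. Of these, 9789 reached 5 FPKM (fragments scaled to gene length and to the mapped fragments of the library) in the higher of both libraries and were compared.

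All mice were C57BL/6J and received GFP+BFP+ leukemia cells, 800000 per mouse, at 6 to 8 weeks of age and without irradiation. The leukemia cells of the control group had neither form of M-CSF raised, and those of the mM-CSF group had a high level of mM-CSF. One more group, whose cells had a high level of sM-CSF, is given here only as levels side by side. What the prefixes mM and sM stand for is not stated by the labels. Cells were sorted from the spleen on day 18 as GR1-, CD115-intermediate and F4/80+, and mice with these leukemias survived for 30 to 40 days. The mice were not irradiated and thus kept their own blood-forming cells, and the number of mice behind a library is not given in the sources used. The raised M-CSF was that of the leukemia cells, and the gate given above names neither GFP nor BFP. The level of Csf1 in the libraries (2.44 FPKM in control, 1.45 in mM-CSF and 2.32 in sM-CSF) is therefore not taken as a check of the labels.

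M-CSF is the growth factor encoded by Csf1. It binds the receptor tyrosine kinase CSF1R (CD115), through which monocytes and macrophages receive signals to survive, divide and mature. The ubiquitin ligase CBL attaches ubiquitin to the activated receptor and thereby limits its signal. In the spleen, macrophages of the red pulp engulf old red cells and recycle their iron, whereas patrolling (non-classical) monocytes and conventional dendritic cells have other gene programs.

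Depth was similar, with 9.09e+06 expected counts for control, 8.57e+06 for mM-CSF and 8.94e+06 for sM-CSF. The gated receptors were well above the minimum in each library. Csf1r, which encodes CD115, was at 268 FPKM in control, 222 in mM-CSF and 149 in sM-CSF. Adgre1, which encodes F4/80, was at 101, 67.5 and 65.5 FPKM in the same order, and the lysosomal glycoprotein gene Cd68 at 245, 284 and 214. Ly6g, one of the antigens bound by GR1 antibodies, was at 0.25, 1.45 and 0.36 FPKM. Transcripts of other blood cells were abundant as well. Jchain, the joining chain of secreted antibodies, stood at 1008, 3301 and 1072 FPKM, above Adgre1 in all 3 libraries. For a gene of such a cell type, fewer cells and less RNA per cell cannot be told apart in bulk RNA.

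The spread between replicates is unknown, since every group has a single library. No test was therefore made, and the differences describe these libraries alone. A difference is log2(FPKM + 1) in mM-CSF minus the same in control, and a gene was called higher or lower when it was at least 1 in size (2-fold). Called higher were 878 genes (8.97% of those compared) and called lower were 1480 (15.1%). Under scaling to TPM (transcript shares of fixed total), which moved the median difference of all genes by -0.45, there were 228 higher and 2867 lower calls, and the share of calls that were higher went from 37.2% to 7.37%.

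These differences followed the length of the gene. With the genes cut into 5 classes by length, in the shortest class, of 53 to 1434 bases, the median difference was 0.80 and 673 genes were called higher against 95 lower. In the longest class, of 4405 to 19827 bases, it was -0.88 and 9 were called higher against 810 lower. Spearman's rank correlation between length and difference across the 9789 genes was -0.67, as a description of 2 libraries in which genes are not independent. Within 5 classes of expression level it lay between -0.71 and -0.50, and within 5 classes of GC content between -0.69 and -0.58. The sM-CSF minus control difference had a correlation of -0.44 with length, from the same control library. The cause of the trend was not tested.

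**Figure D1:**
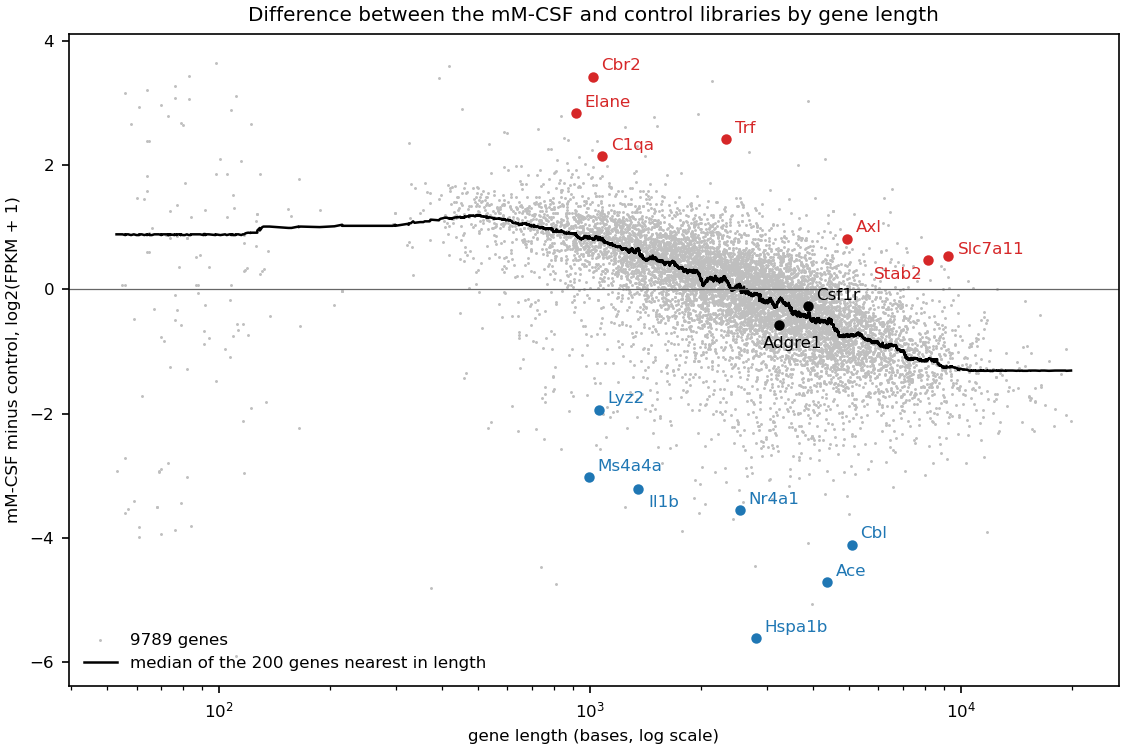
Difference between the mM-CSF and control libraries (vertical axis, log2(FPKM + 1)) against gene length in bases (horizontal axis, log scale) for 9789 genes (gray points), with the median of the 200 genes nearest in length (black line). Labeled genes are described in the text and were chosen after their values were seen: red, higher among genes of similar length; blue, lower; black, Csf1r and Adgre1, with length-matched differences of 0.17 and -0.40.

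Each gene was therefore compared with the 200 genes nearest to it in length, by subtracting their median difference. This length-matched difference had a correlation with length of 0.02 and a median of -0.005, and its quartiles were -0.36 and 0.31. Its correlation with GC content was 0.22, against 0.29 before matching, so a relation to GC content remained. By the same 2-fold rule, 294 genes (3.0%) were higher and 761 (7.77%) lower in mM-CSF. The counts of each list below are to be read beside these shares, and beside 8.97% higher and 15.1% lower before matching. Only part of the calls were shared. Of the genes higher among genes of similar length, 157 (53.4%) had also been called higher before matching, and of those lower, 599 (78.7%). In the other direction, 17.9% of the genes first called higher and 40.5% of those first called lower were called after matching. Counts are given below after matching, with those before it beside them. A gene called by matching alone had a deposited difference under 2-fold, while its neighbors in length moved against the direction of the call. With matching on GC content as well as length, 229 (77.9%) of the 294 higher genes kept the call. Of the 761 lower genes, 697 (91.6%) kept it.

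**Figure D2:**
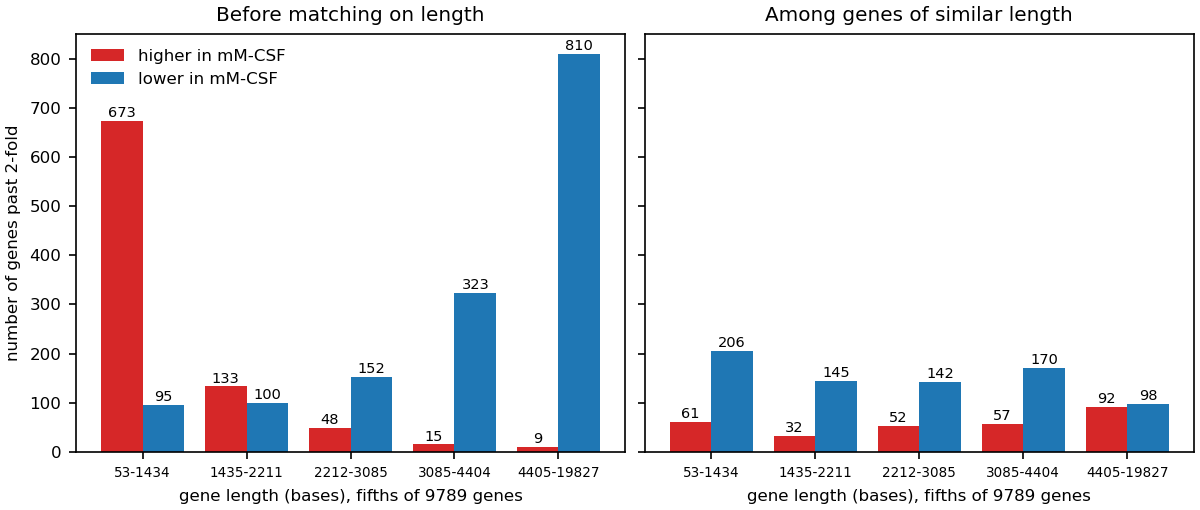
Number of genes past 2-fold (vertical axis) in 5 classes of gene length in bases (horizontal axis), higher in mM-CSF in red and lower in blue, before matching on length (left) and among genes of similar length (right). The 673 higher calls in the shortest class and the 810 lower calls in the longest became 61 and 98.

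Genes of patrolling monocytes and of conventional dendritic cells were lower. Of 16 non-classical monocyte genes, all at the minimum, 11 were lower and 0 higher after matching (10 and 0 before), with a median length-matched difference of -1.42 against -0.005 over all genes. Ace, angiotensin-converting enzyme, was at 132 FPKM in control, 4.09 in mM-CSF and 26.5 in sM-CSF. Its share of counts was 41.9-fold lower in mM-CSF than in control (95% exact conditional interval 35.3 to 50.1, counting error only), and its length-matched difference was -4.17. Nr4a1, the nuclear receptor that these monocytes need to form, was at 266, 21.7 and 94.9 FPKM, 12.2-fold lower as a share of counts (11.1 to 13.4), with a length-matched difference of -3.64. Cx3cr1, the receptor for fractalkine, was at 46.8, 8.70 and 14.4 FPKM, and the phosphatase gene Dusp16 at 27.7, 2.75 and 9.99. The counts of Cx3cr1 were not whole. For all 4 of these genes the mM-CSF library was the lowest and the control the highest.

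Other members of the list were less far apart, such as Pglyrp1, at 119, 106 and 76.6 FPKM, and Fabp4, at 28.9, 16.5 and 5.76. Both were called lower only among genes of similar length. Spn, which encodes CD43 and was at 137, 61.6 and 73.3 FPKM, was lower only before matching. Treml4 (147, 112 and 94.0 FPKM) was called by neither rule. The classical monocyte list split: of 15 members at the minimum, 2 were higher and 2 lower before matching, and after it 2 were higher (Ly6c2, at 70.9, 272 and 107 FPKM, and F13a1) and 3 lower (S100a4, Sirpb1c and Emilin2). After matching these are 13.3% higher and 20% lower, against 3.0% and 7.77% over all genes. The count of Ly6c2 was not whole, which can arise where reads are divided between near-identical or overlapping genes, and such values are uncertain here and below.

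Conventional dendritic cell genes had a median length-matched difference of -1.59. Of 17 members at the minimum, 11 were lower and 0 higher, both before and after matching. Xcr1 was among the 11 only before it. Zfp366, which encodes the dendritic cell factor DC-SCRIPT, was at 24.6 FPKM in control, 0.17 in mM-CSF and 9.02 in sM-CSF, a length-matched difference of -4.38. Zbtb46, a factor that marks this lineage, was at 20.1, 1.46 and 13.1 FPKM. Flt3, the receptor for the growth factor of dendritic cells, was at 46.0, 6.25 and 42.0 FPKM, and Cd209a, a lectin of monocyte-derived and conventional dendritic cells, at 24.97, 4.25 and 32.00. Clec9a, the receptor for dead cells on cross-presenting dendritic cells, was at 10.9, 2.12 and 9.06 FPKM, and Itgax, which encodes CD11c and whose counts were not whole, at 163, 28.1 and 133. For each of these but Zfp366, the sM-CSF level in FPKM lay closer to the control level than to the mM-CSF level. On the log2 scale Zfp366 lay closer to control too, with differences from control of -1.35 in sM-CSF and -4.45 in mM-CSF. The lineage factors Irf8 (132, 127 and 142 FPKM) and Irf4 (35.2, 28.8 and 35.2 FPKM) were not called, with length-matched differences of 0.04 and 0.44. Plasmacytoid dendritic cell genes gave 2 higher (Tcf4 and Il3ra) and 1 lower (Klk1) of 12, against 4 and 1 before matching.

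**Figure D3:**
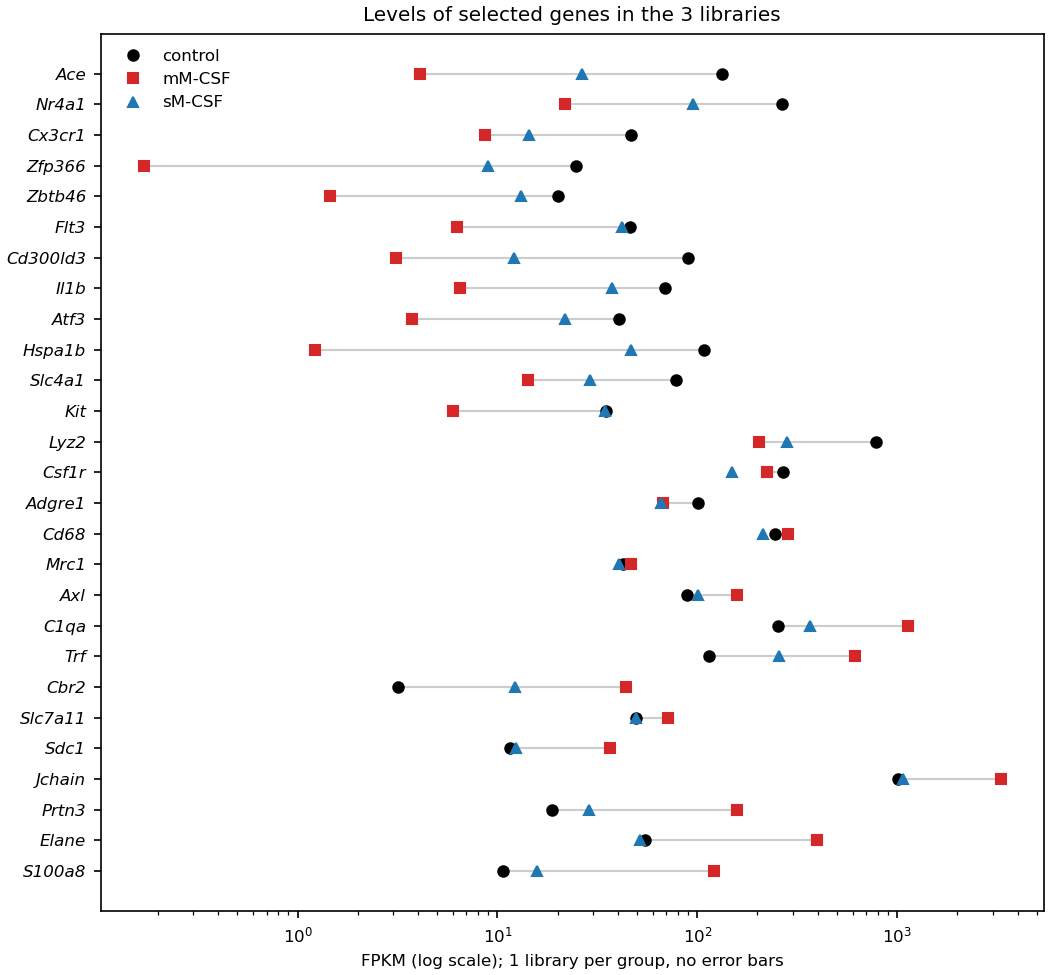
FPKM (horizontal axis, log scale) of 27 genes in the control (black circles), mM-CSF (red squares) and sM-CSF (blue triangles) libraries, 1 library per group and no error bars, for genes chosen after their values were seen. From Ace at 132 FPKM in control and 4.09 in mM-CSF to S100a8 at 10.7 and 122, the sM-CSF value lies between both for most genes but beside the control for Flt3 and Elane.

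Among other surface receptors of myeloid cells, the CD300 family stood lowest. The CD300 family pairs activating and inhibitory lipid receptors, and 7 of its 8 members at the minimum were lower after matching (5 before). Cd300ld3 was at 90.1, 3.11 and 12.1 FPKM and Cd300ld5 at 25.8, 0 and 2.38 FPKM, but counts of these near-identical genes were not whole and their values are uncertain. Cd300lb, with whole counts, was at 19.3, 5.25 and 7.22 FPKM, a length-matched difference of -1.61, and Cd300e at 121, 54.0 and 37.3. Of 16 C-type lectin receptors, 6 were lower and 4 higher before matching, and 7 lower and 1 (Clec4a2) higher after it. Their median length-matched difference of -0.77 was -0.41 with a pseudocount of 5 FPKM and -1.17 with genes whose counts are not whole left out. Clec4e, which encodes the mycobacterial sensor Mincle, was at 13.5, 0.55 and 1.64 FPKM, and Clec7a, which encodes the beta-glucan receptor Dectin-1, at 32.7, 9.47 and 23.4. Among 9 members of the MS4A family, 3 were lower and 0 higher (2 and 1 before). Ms4a4a led them, at 33.5, 3.25 and 6.32 FPKM, but all 3 had counts that were not whole. Of 14 leukocyte integrin subunits, 4 were lower after matching (5 before) and 0 higher: Itgal (188, 50.1 and 91.7 FPKM), Itgax, Itgam (41.3, 5.76 and 20.0 FPKM, counts not whole) and Itga4.

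Toll-like receptors and their adaptors gave 6 lower and 0 higher of 23 after matching (9 lower before), with a median length-matched difference of -0.66. The nucleic acid sensors were among those lower: Tlr9 at 50.6 FPKM in control, 5.41 in mM-CSF and 31.7 in sM-CSF, Tlr7 at 45.2, 11.3 and 24.1, Tlr13 at 37.7, 8.83 and 18.5, and Tlr3 at 7.21, 1.44 and 5.09. The others lower were Cd180, a surface receptor of responses to bacterial lipopolysaccharide, at 121, 33.7 and 83.4 FPKM, and the adaptor gene Ticam2. Tlr8, another nucleic acid sensor, was lower only before matching. Of the surface sensors of bacterial products, Tlr2 (21.3, 15.5 and 12.2 FPKM) and Tlr4 (8.76, 7.43 and 6.81 FPKM) were not called.

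RNA levels of genes that respond to growth factors and inflammation showed the same direction. Signaling itself was not measured. Of 25 AP-1 and EGR immediate early genes, which respond within minutes to growth factors and stress, 13 were lower and 0 higher after matching (14 and 0 before), with medians of -1.03 and -1.19. Egr1 was at 176, 27.0 and 136 FPKM, Jun at 200, 48.1 and 116, and Dusp1, a phosphatase that switches off MAP kinases, at 111, 21.7 and 69.3. Atf3 was at 40.7, 3.75 and 21.7 FPKM, a length-matched difference of -3.35, and Klf4 at 39.5, 3.89 and 13.3. Fos, at 103, 55.0 and 61.4 FPKM, and Junb, at 303, 163 and 276, were less far apart, with length-matched differences of -1.07 and -1.17, and Fosb (31.1, 17.3 and 25.2 FPKM) was not called. In all of these the mM-CSF library was the lowest of the 3. The promoters of 2 members are shown because both genes are lower and both windows hold the half-site TGACG of the cyclic AMP response element, in capitals. They are the 250 bases before the start of the gene in RefSeq on GRCm38.p6, Nr4a1 at chr15:101266596-101266845 on the plus strand and Dusp1 at chr17:26508473-26508722 on the minus strand:
Nr4a1: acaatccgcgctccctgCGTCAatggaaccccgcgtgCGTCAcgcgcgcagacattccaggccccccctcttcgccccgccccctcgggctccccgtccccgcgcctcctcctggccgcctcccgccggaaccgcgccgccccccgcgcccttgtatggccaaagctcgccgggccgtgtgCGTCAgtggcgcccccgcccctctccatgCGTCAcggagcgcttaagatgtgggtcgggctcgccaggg
Dusp1: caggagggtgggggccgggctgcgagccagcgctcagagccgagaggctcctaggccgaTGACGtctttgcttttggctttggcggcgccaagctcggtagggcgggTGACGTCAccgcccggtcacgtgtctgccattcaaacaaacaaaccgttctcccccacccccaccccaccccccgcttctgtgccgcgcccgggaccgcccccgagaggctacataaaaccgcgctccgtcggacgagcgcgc
TGACG or its reverse CGTCA occurred in 14 of 25 promoters of the list, in 27.3% of the promoters of genes at the minimum, in 27.0% of those of genes higher after matching and in 20.5% of those of genes lower. The motif and the pair were chosen after the sequences were read, and the Nr4a1 window holds 4 matches and the Dusp1 window 3, of which 2 overlap in the palindrome TGACGTCA.

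NF-kB subunits and inhibitors gave 6 lower and 0 higher of 16 by each rule, with a median length-matched difference of -0.63. The 6 were not all the same genes, as Nfkb1 was lower only before matching. Rel, the c-Rel subunit, was at 38.6, 2.69 and 16.3 FPKM, 14.3-fold lower as a share of counts in mM-CSF (11 to 18.9). Nfkbiz was at 62.0, 12.1 and 27.5 FPKM and Tnfaip3, which encodes the inhibitory enzyme A20, at 37.7, 9.48 and 26.2. Relb, of the non-canonical pathway, was at 90.6, 42.0 and 106 FPKM, so that sM-CSF lay above control there. Of 14 cytokines at the minimum, 4 were lower and 0 higher after matching (3 and 1 before): Il1b (68.6, 6.52 and 37.4 FPKM, a length-matched difference of -3.86), Tnf (37.0, 10.3 and 20.7), Il12b and Il27. Tgfb1, at 218, 236 and 232 FPKM, was not called. Among 11 chemokine ligands 5 were lower and 0 higher (4 and 1 before), among them Cxcl16 at 25.3, 3.74 and 22.5 FPKM and Ccl3 at 77.6, 32.1 and 40.5. Il6 (0.88, 0.11 and 0.40 FPKM), Il10 (2.39, 2.16 and 0.86 FPKM), Arg1 and Vegfa were under the minimum in both libraries.

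Type I interferon response genes gave 9 lower and 0 higher of 28 after matching (13 lower and 1 higher before), with a median of -0.71. Ifitm3 was at 326, 135 and 191 FPKM, Rsad2 at 14.7, 3.07 and 6.44, and Usp18 at 15.4, 5.17 and 13.9. Isg15 was at 31.0, 24.1 and 24.9 FPKM and was lower only among genes of similar length, and the counts of Ifitm3 and Isg15 were not whole. Interferon-inducible GTPases gave 2 lower of 15 (3 before), shares of 13.3% and 20% against 7.77% and 15.1% over all genes.

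Antigen presentation on MHC class II depended on the matching. Before it, 3 of 15 genes were lower and the median difference was -0.05, and after it 4 were lower and the median was -0.70. The class II transactivator Ciita was at 80.6, 16.4 and 66.2 FPKM, lower by both. By contrast, H2-Aa, at 2546, 2091 and 3256 FPKM, had a difference of -0.28 before matching and -1.09 after it. The other calls after matching, H2-DMb2 (-1.02) and H2-Eb2 (-1.10), were also close to the rule. In some alternatives H2-Aa, H2-DMb2 and H2-Eb2 were under it, at -0.98, -0.90 and -0.89. The share of counts of H2-DMb2 in mM-CSF was 0.975 times that in control (0.925 to 1.028). Of the 19 class I genes, 0 were called after matching and 2 in each direction before. Immune checkpoint and costimulation genes gave 7 lower and 0 higher of 22 after matching (5 and 1 before). Havcr2, which encodes TIM-3, was at 41.0, 4.80 and 31.9 FPKM and Cd274, which encodes PD-L1, at 45.3, 7.33 and 30.8, both with counts that were not whole. Cd86, at 45.2, 41.5 and 37.0 FPKM, was not called.

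CSF receptors and the molecules that attenuate their signal gave 5 lower and 0 higher of 16 after matching, with a median of -0.66 (8 lower and 1 higher before, -0.98). That median was -0.40 with genes whose counts are not whole left out. Csf1r itself, the receptor of M-CSF, was not called: its share of counts in mM-CSF was 0.835 times that in control (0.810 to 0.861) and its length-matched difference 0.17. Cbl was at 36.1, 1.15 and 12.5 FPKM, a length-matched difference of -3.38 and a share of counts 31.2-fold lower (23.6 to 42.0). The GM-CSF receptor chains were lower too, with Csf2ra at 117, 42.2 and 104 FPKM and Csf2rb at 54.9, 13.1 and 41.9, all from counts that were not whole. Kit, the stem cell factor receptor of the same kinase family as CSF1R, was at 35.03, 6.02 and 34.67 FPKM, so that control and sM-CSF were alike and mM-CSF low.

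Genes that define macrophages as such did not move together. Of 20 members, 2 were higher (Fcgr1 and Maf) and 4 lower (Lyz2, Itgam, Cebpb and Spi1) after matching, with a median of -0.04. The calls after matching are 10% higher and 20% lower, against 3.0% and 7.77% over all genes. Before matching the counts were also 2 and 4, but with Aif1 higher in place of Maf and Mertk lower in place of Spi1. The difference of Spi1 went from -0.69 to -1.19. Lyz2, lysozyme, was at 784 FPKM in control, 205 in mM-CSF and 282 in sM-CSF, from counts that were not whole. The transcription factor genes Cebpb (75.8, 21.6 and 18.1 FPKM) and Spi1, which encodes PU.1 (194, 120 and 156 FPKM), were the others with whole counts. Fcgr1, the high-affinity IgG receptor CD64, was at 9.71, 26.4 and 12.2 FPKM, a length-matched difference of 1.37. Mrc1, the mannose receptor, was at 42.5, 46.6 and 40.5 FPKM and was not called. The alternative activation list, 18 genes, had 5 lower and 0 higher by each rule, with Tgm2, transglutaminase 2, at 104, 29.3 and 71.7 FPKM.

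Among 11 complement genes, 4 were higher and 3 lower before matching, and 2 higher and 2 lower after it, the higher ones being chains of C1q. The lower ones after matching were Itgam and Itgax, integrin subunit genes whose counts were not whole. The median of the list was -0.16, and 0.92 with genes whose counts are not whole left out. C1qa, C1qb and C1qc encode the chains of C1q, the recognition molecule of the classical complement pathway. C1qa was at 254 FPKM in control, 1129 in mM-CSF and 366 in sM-CSF, C1qb at 271, 1231 and 385, and C1qc at 312, 1085 and 397. Their shares of counts were higher in mM-CSF by 4.47-fold (4.27 to 4.67), 4.57-fold (4.37 to 4.77) and 3.50-fold (3.36 to 3.65). They are short genes, of 1062 to 1082 bases, and among genes of similar length the differences of 2.15, 2.18 and 1.80 became 1.36, 1.37 and 0.98, the last just under the rule. The list of the red pulp and of iron handling, 23 genes, had 3 higher and 0 lower after matching (4 and 1 before), with a median of 0.20. Trf, transferrin, was at 114, 614 and 257 FPKM, a length-matched difference of 2.27. Axl, a receptor for apoptotic cells, was at 88.8, 157 and 101 FPKM from counts that were not whole, a difference of 0.82 that became 1.55 because genes of its length were lower. Siglec1, the sialoadhesin CD169, was at 5.54, 7.92 and 8.45 FPKM, and was under the rule with a pseudocount of 5 FPKM. The genes that define the red pulp type were not called: Spic at 114, 201 and 88.2 FPKM, Vcam1 at 204, 197 and 156, Slc40a1, the iron exporter ferroportin, at 164, 201 and 147, and Hmox1, heme oxygenase 1, at 354, 392 and 247.

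Uptake and clearance genes were mixed. Of 16 scavenger and apoptotic cell receptors, 3 were higher after matching (Stab2, Axl and Gas6) and 1 lower (Cd36, at 25.8, 5.92 and 13.6 FPKM), and before matching 1 was higher and 4 lower. Mertk, kin to Axl, was at 42.2, 17.8 and 25.6 FPKM and was lower only before matching. Of 14 Fc gamma receptor genes, Fcgr1 and Fcgrt were higher and Fcgr4 (114, 75.9 and 38.8 FPKM) and the kinase gene Fgr lower, against 2 higher and 1 lower before matching. After matching that is 14.3% each way, against 3.0% higher and 7.77% lower over all genes. Lysosomal hydrolase and proton pump genes had a median length-matched difference of -0.02, with 3 higher (Ctsb, Ctsl and Atp6v0a1) and 0 lower of 36, against 1 and 0 before matching. The counts of Ctsb and Ctsl were not whole, and Ctsb and Atp6v0a1 were under the rule in some alternatives. In the lipid list of 25 genes, Lpl, lipoprotein lipase, was higher at 15.53, 44.70 and 18.04 FPKM (counts not whole), and 5 were lower, led by Apoc2 at 30.4, 5.62 and 10.0, against 2 higher and 7 lower before matching. Apoe, at 396, 727 and 390 FPKM, was not called. In the antioxidant list of 28, 11 were higher and 1 lower before matching, and 4 and 0 after it. Cbr2, a carbonyl reductase, was at 3.19, 44.0 and 12.3 FPKM, the highest length-matched difference of the named genes at 2.62, and Gpx3, a secreted glutathione peroxidase, was at 3.95, 29.7 and 4.60. Slc7a11, the cystine transporter, and Prdx4 were the others.

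**Figure D4:**
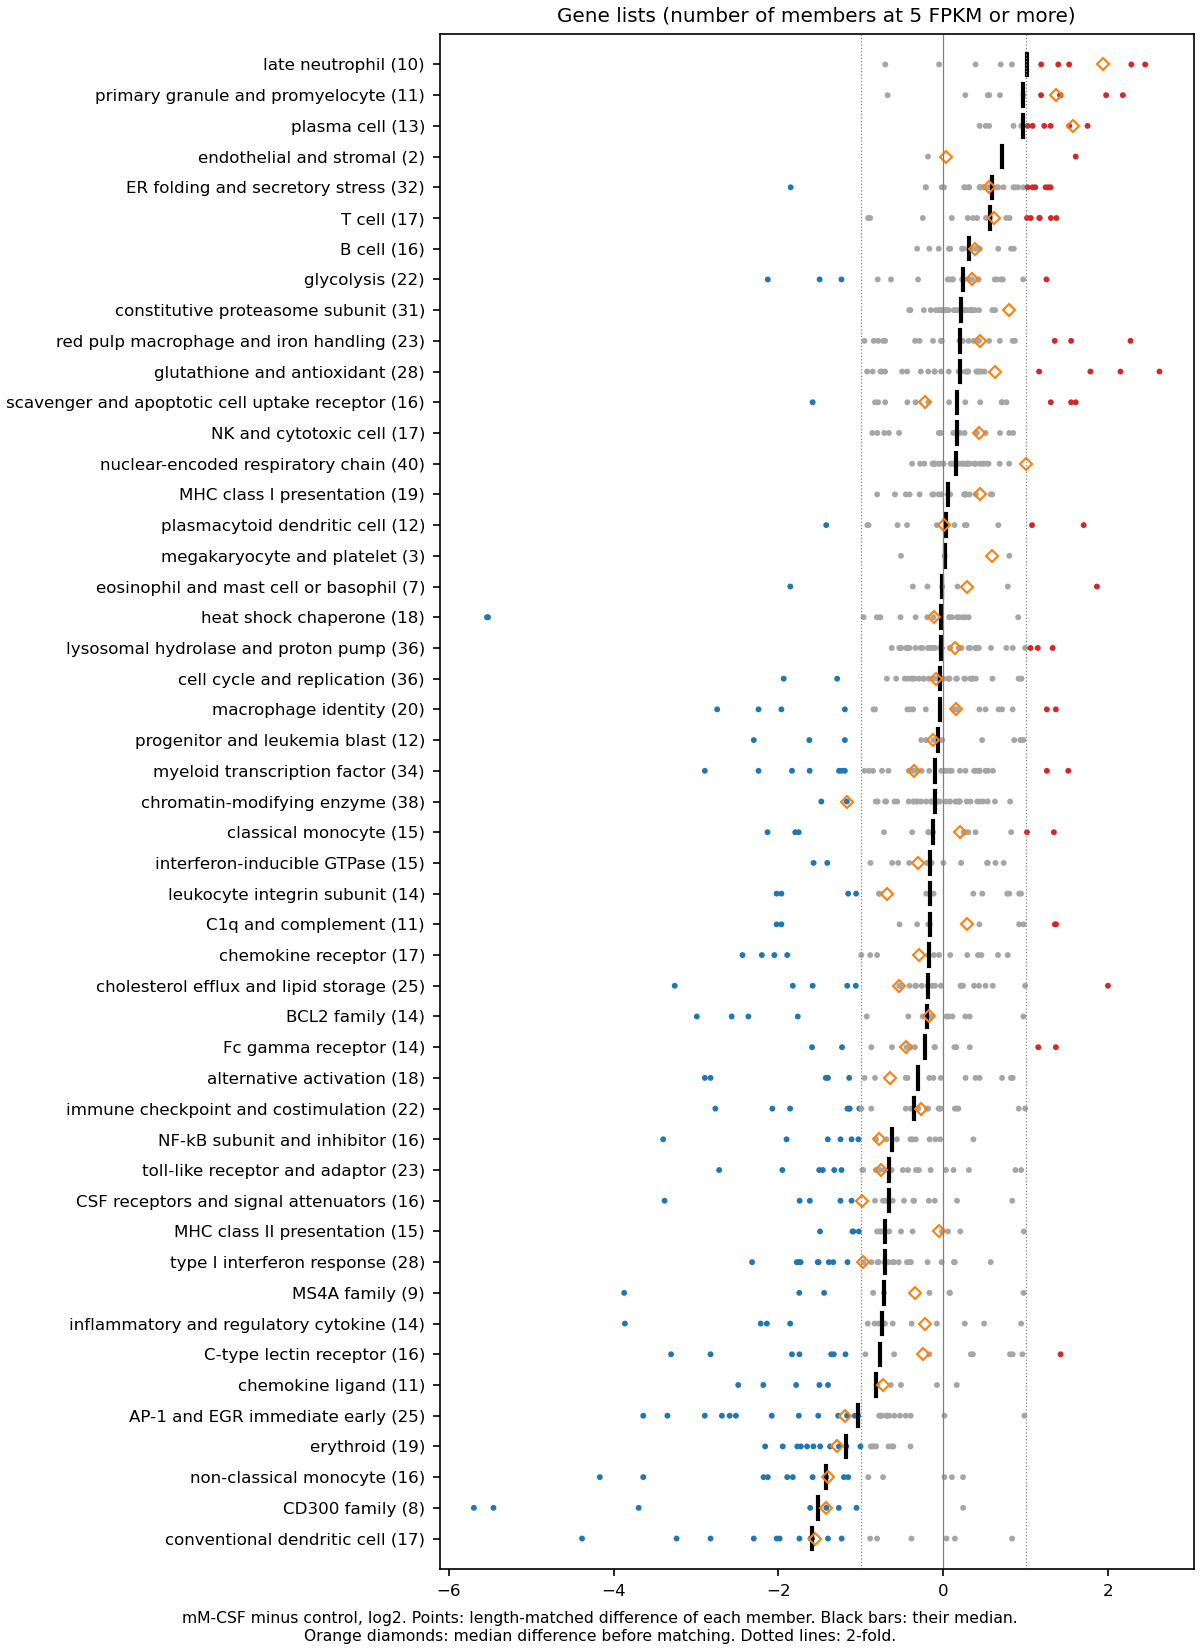
Length-matched difference (horizontal axis, log2, mM-CSF minus control) of every member at the minimum of 49 gene lists (rows, with the number of members), red past 2-fold higher, blue past 2-fold lower and gray neither, with the median (black bar) and the median before matching (orange diamond). The lowest medians are those of conventional dendritic cell (-1.59), CD300 family (-1.52) and non-classical monocyte (-1.42) genes, and the highest those of late neutrophil (1.01), primary granule (0.97) and plasma cell (0.96) genes.

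Genes of other blood cells moved alongside these results in both directions. Of 11 primary granule genes, made by promyelocytes and packed into the granules of neutrophils, 5 were higher and 0 lower after matching (7 and 0 before), and the FPKM of all members summed to 1247 in control, 2393 in mM-CSF and 1294 in sM-CSF. Elane, which encodes the elastase of neutrophils, was at 54.5, 397 and 51.7 FPKM, and its share of counts was 7.32-fold higher (6.63 to 8.11). Prtn3, proteinase 3, was at 18.8, 158 and 28.7 FPKM, Ctsg, cathepsin G, at 18.8, 92.3 and 17.2, and Mpo, myeloperoxidase, at 63.5, 166 and 62.3. Of the 10 late neutrophil genes at the minimum, 5 were higher and 0 lower (7 and 1 before), with S100a8 at 10.7, 122 and 15.8 FPKM and Camp at 3.08, 22.3 and 3.71, while 9 of the 19 listed, Ly6g among them, were under it. Over the alternatives, the lowest length-matched differences of Camp, Lcn2 and Stfa1 were 0.72, 0.75 and 0.79, all under the rule. The lowest median of this list was 0.67, against 1.01 in the main setting. For Elane, Mpo and Ctsg the control and sM-CSF libraries were alike and the mM-CSF library stood apart. The 250 bases before Elane (chr10:79886062-79886311) and Prtn3 (chr10:79879417-79879666), both on the plus strand in RefSeq on GRCm38.p6, are shown as the 2 members with the highest length-matched differences, with AGGAAGT, a core bound by ETS-family factors such as PU.1, in capitals:
Elane: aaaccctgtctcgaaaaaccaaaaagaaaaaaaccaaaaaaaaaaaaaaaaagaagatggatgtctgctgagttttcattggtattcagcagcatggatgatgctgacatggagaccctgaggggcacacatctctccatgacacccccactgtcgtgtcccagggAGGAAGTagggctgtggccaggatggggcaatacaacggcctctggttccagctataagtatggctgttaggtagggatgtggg
Prtn3: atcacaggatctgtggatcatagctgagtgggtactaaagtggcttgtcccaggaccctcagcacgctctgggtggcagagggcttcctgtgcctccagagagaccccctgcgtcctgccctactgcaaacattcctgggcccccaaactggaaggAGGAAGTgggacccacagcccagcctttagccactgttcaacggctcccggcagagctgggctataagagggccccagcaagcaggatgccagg
AGGAAGT or its reverse ACTTCCT occurred in 4 of 12 promoters of the list, in 8.34% of the promoters of genes at the minimum, in 10.5% of those of genes higher after matching and in 12.9% of those of genes lower. The motif was picked after reading the promoters that hold it, so the 4 of 12 is a description.

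Plasma cell genes were all above their neighbors in length, 13 of 13, with 6 higher and 0 lower after matching (8 and 0 before) and a summed level of 1753 FPKM in control, 5177 in mM-CSF and 1814 in sM-CSF. Jchain was 3.30-fold higher as a share of counts (3.24 to 3.35), and Sdc1, which encodes the plasma cell marker CD138, was at 11.5, 36.7 and 12.4 FPKM. Mzb1, a chaperone of antibody-secreting cells, was at 174, 612 and 191 FPKM. The ER folding list moved beside them. Of its 32 members, 6 were higher (Manf, Creld2, Edem1, Derl3, Ssr1 and Spcs2) and 1 lower after matching (9 and 1 before), and 28 were above the median of genes of their length. Ssr1 and Edem1 were called by matching alone. Ssr1 was at 29.44, 29.88 and 23.95 FPKM, and its difference of 0.02 became 1.27, but 0.83 at the lowest of the alternatives. The difference of Edem1 went from 0.44 to 1.30. Manf, which is secreted on ER stress, was at 54.5, 146 and 58.0 FPKM, and Ern1, the stress sensor IRE1-alpha, was the lower one at 12.4, 1.62 and 6.46. Derl3, Creld2 and Edem1 are in both lists. The part of plasma cell RNA in the ER folding result was not tested.

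T cell genes gave 6 higher and 0 lower of 17 after matching (7 and 1 before), summing to 618 FPKM in control, 1020 in mM-CSF and 991 in sM-CSF. Cd3g was at 34.2, 137 and 71.3 FPKM and Zap70 at 18.4, 47.7 and 28.3, whereas Cd4, which some myeloid cells also carry, was at 62.8, 28.7 and 82.4. B cell genes, 16 at the minimum, gave 0 calls after matching, and 3 higher (Cd79a, Cd79b and Vpreb3) and 1 lower before it, and their sum was 2098, 3843 and 3652 FPKM. NK and cytotoxic cell genes gave 0 calls of 17 after matching and 4 higher before it (Nkg7, Klra8, Xcl1 and Cma1), with a sum of 1207, 1802 and 1230 FPKM.

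Erythroid genes went the other way. Of 19 at the minimum, 11 were lower and 0 higher by each rule, and all 19 lay below the median of genes of their length. The 11 were not the same genes. Tfrc, Ermap, Sptb and Ank1 were lower only before matching. Others were lower only after it, such as Hbb-bt, with a difference of -0.73 that became -1.77. Slc4a1, the red cell anion exchanger band 3, was at 77.9, 14.2 and 29.2 FPKM, and Hemgn at 29.2, 6.77 and 10.3. Globin counts were not whole and the levels were closer together, with Hba-a1 at 2336, 1990 and 1659 FPKM, and they make up most of the summed level of the list, which was 5819 in control, 4837 in mM-CSF and 4210 in sM-CSF. Of 12 progenitor and leukemia blast genes, 3 were lower (Kit, Flt3 and Spi1) and 0 higher (2 and 0 before). Spi1 was lower only after matching, and Cd34 was at 3.97, 6.31 and 4.53 FPKM. The part of these cell types in the results on macrophage genes was not tested.

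Lists of long or short housekeeping genes lost their calls on matching. Of 40 nuclear-encoded subunits of the respiratory chain, with a median length of 770.5 bases, 20 were higher and 0 lower before matching and 0 were called after it, as the median went from 1.01 to 0.15. Ndufa2, a subunit of complex I, was at 38.3, 147 and 63.1 FPKM, and its difference of 1.92 became 0.80. Of 31 subunits of the proteasome, the complex that degrades tagged proteins, 7 were higher before and 0 after, and the median went from 0.80 to 0.22. Of 38 chromatin-modifying enzymes, with a median length of 8125 bases, 22 were lower before matching and 2 (Ep300 and Tet2) after it, with medians of -1.17 and -0.10. Tet2, which oxidizes methylcytosine, was at 17.6, 1.80 and 8.83 FPKM. Among 82 cytosolic ribosomal protein genes, a group formed by symbol after the values were seen, 75 were higher before matching and 5 after it.

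**Figure D5:**
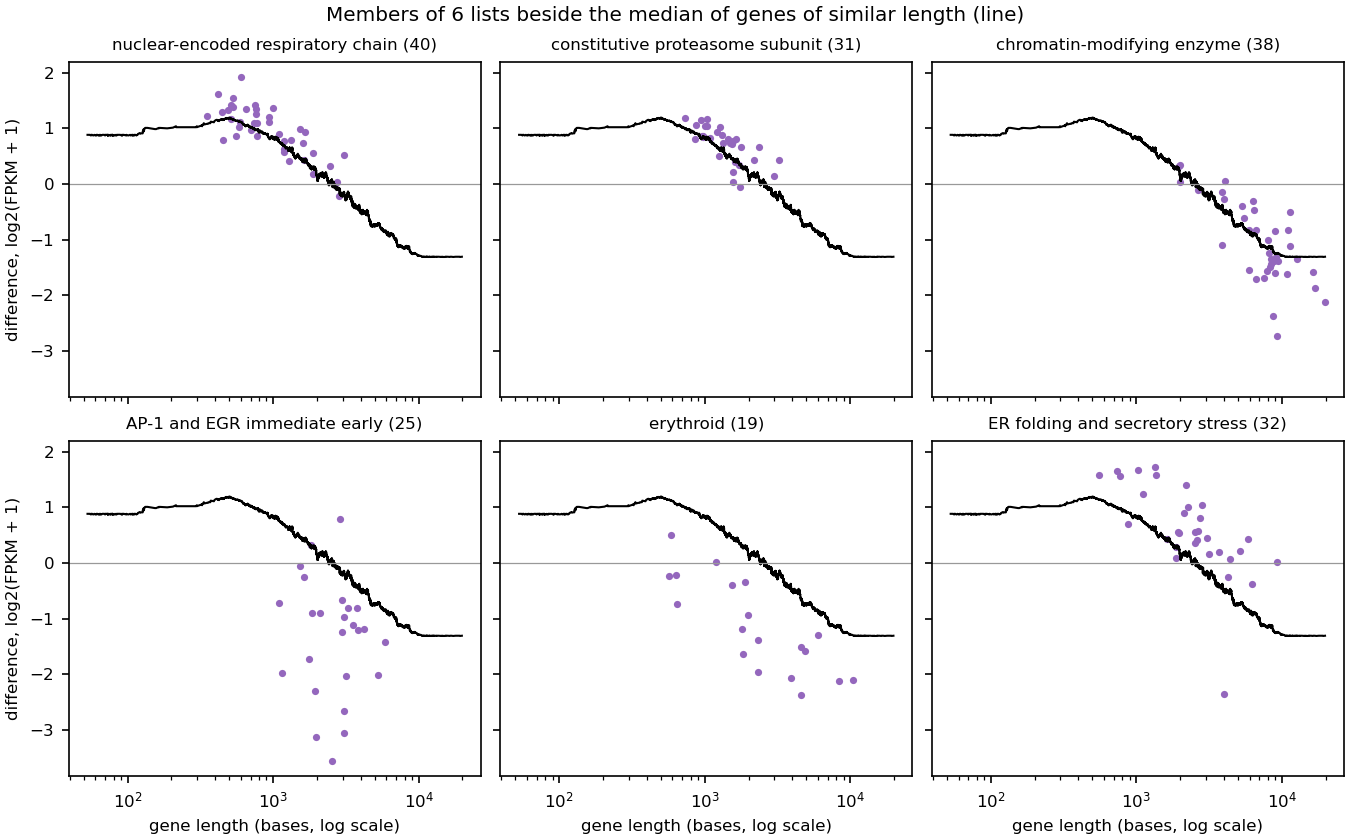
Difference between the mM-CSF and control libraries (vertical axes, log2(FPKM + 1)) against gene length in bases (horizontal axes, log scale) for members of 6 lists (points), with the median of the 200 genes nearest in length (line). Respiratory chain, proteasome and chromatin genes lie along the line (median length-matched differences 0.15, 0.22 and -0.10), immediate early (-1.03) and erythroid (-1.17) genes below it, and ER folding genes (0.59) above it.

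Outside the lists, the lowest genes with whole counts were Krt80, a keratin, at 40.1, 1.77 and 14.4 FPKM (length-matched difference -4.23), and Kcna3, the potassium channel Kv1.3, at 14.1, 0.24 and 5.23 (-3.85). The highest with whole counts were Col14a1, collagen XIV, at 5.69, 14.79 and 10.95 FPKM (2.14), and the translation factor gene Eif5b, at 26.2, 47.6 and 29.6 (1.98). Prex2, Pbld1, Nyx and Chst1 were higher still, from 2.28 to 2.56, but their counts were not whole. Hspa1a (92.3, 0.92 and 43.1 FPKM) and Hspa1b (107, 1.22 and 46.6 FPKM), near-identical genes of the inducible heat shock protein HSP70, were among the lowest of all. The other heat shock chaperones were 16 at the minimum, with no further call after matching (the 18 gave 1 higher and 3 lower before it).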

How the data were processed

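Macrophages sorted from mouse spleen were measured by RNA sequencing on a BGISEQ-500 in 3 libraries, 1 per group, from 1 ug of total RNA each per the labels' protocols. Bowtie2 (version 2.2.5) and RSEM are named in the submitters' processing notes. The genome build, the annotation and whether counting used the strand are not given in the sources used here. Per the file headers, the authors deposited an expected count (an estimate that need not be whole), a gene length and an FPKM value per NCBI gene ID. Symbols came from RefSeq on GRCm38.p6, and 52 of 17208 genes had none. Genes missing from a table were taken as 0.

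Differences were taken on log2 values with a pseudocount of 1 FPKM, which shrinks the change of low genes. Genes needed 5 FPKM in the higher library, and passed at a difference of 1 (2-fold). The length-matched difference subtracts the median of the 100 genes on each side in length, using the mean length of both libraries. Ratios of shares of expected counts, rounded to whole numbers, have exact conditional (Clopper-Pearson) 95% intervals, which cover counting error only. A floor of 3 counts is 0.330 CPM in control and 0.350 in mM-CSF. A count was taken as whole within 0.005. No test between groups was possible with 1 library each, so that no p-value is given.

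Named genes were, among those of at least 300 bases and 10 FPKM, the 15 highest and 15 lowest by length-matched difference (small RNA, mitochondrial, ribosomal protein and predicted genes left out), at most 4 members of each of 49 lists with the largest differences, and 14 fixed genes. The members and lists were chosen with earlier results of these data known. Of 964 list genes, 945 were in the tables, and lists share members. Other genes named with values, the promoters and their motifs were chosen after values were seen. The length-matched calls were tested on simulated counts with a set length trend and known changes, with counting error only. Alternatives were the pseudocount, the minimum, scaling, the size rule and the matching. Promoters are from RefSeq, and a motif was counted on both strands. Computation used Python 3.11.15, numpy 2.4.6, pandas 2.3.3, scipy 1.17.1 and matplotlib 3.10.9.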

Additional observations from a re-analysis of the deposited data

How the results depend on the processing

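The 4 counts of genes were recomputed under 17 alternatives, 2 of them chosen after seeing the data. A pseudocount of 5 FPKM gave 554 higher and 780 lower genes on deposited values and 121 and 503 among genes of similar length. A minimum of 1 FPKM gave 450 higher and 1162 lower among genes of similar length. TPM scaling gave 228 higher and 2867 lower on deposited values. A 1.5-fold rule gave 2111 and 2682 on deposited values and 1099 and 1581 among genes of similar length, and a 3-fold rule gave 142 and 561, and 57 and 369. Leaving out genes whose counts are not whole, one of the 2 added alternatives, gave 189 higher genes of similar length. The other counts were within 1.5 times the main ones. For the 150 named genes called after matching, 2399 of 2489 values kept the call and 0 changed sign. Most of these genes were chosen for large length-matched differences, so kept calls are likely from the choice alone. Alternatives in which a gene was not among those compared are not counted for it. Of 832 list medians, 775 moved by less than 0.1 or stayed within 1.5 times, and 55 moved further. Medians near 0 changed sign under some alternatives, as for scavenger receptors and, from -0.16 to 0.92 without genes whose counts are not whole, for complement, and so did 2 larger ones: the endothelial and stromal median (2 members at the minimum) was -0.19 at 1 FPKM, and the MS4A median was 0.026 without genes whose counts are not whole. The cause was not tested. Leaving out a replicate could not be done, and no paired analysis was possible because each group has 1 library. The depth of 8.57e+06 to 9.09e+06 counts limits what can be said of genes with few counts in either library. Intervals are wide there, as for Kcna3, with 251 counts in control and 4 in mM-CSF (59.2-fold lower, 22.8 to 219).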

Other observations

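Genes of cell survival, division and sugar metabolism were also measured. Of 14 BCL2 family genes, 4 were lower and 0 higher among genes of similar length (4 and 1 before matching). Pmaip1, which encodes the death-promoting protein NOXA, was at 91.5 FPKM in control, 10.5 in mM-CSF and 69.6 in sM-CSF, and the survival genes Bcl2a1d (126, 39.9 and 81.6 FPKM), Bcl2a1a and Bcl2a1b were the others, all 4 from counts that were not whole. With such genes left out, the median of the list was 0.01 instead of -0.20.

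Of 36 cell cycle and replication genes, 2 were lower and 0 higher after matching (4 and 0 before), shares of 5.56% and 11.1% that lay below the 7.77% and 15.1% over all genes: Ccnd1, which encodes cyclin D1, at 104, 19.8 and 89.8 FPKM, and Cdkn1a, the cell cycle inhibitor p21, at 13.4, 6.20 and 8.60. The proliferation marker Mki67, at 69.2, 29.1 and 33.4 FPKM, has a long transcript and went from a difference of -1.22 to a length-matched one of 0.07. Of 22 glycolysis genes, Pfkl was higher (17.96, 32.71 and 21.59 FPKM, counts not whole), and Pfkfb3, Eno3 and the lactate exporter gene Slc16a3 were lower, against 0 higher and 5 lower before matching. Gapdh, at 921, 1635 and 868 FPKM, was not called, with a length-matched difference of 0.35.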
